A study of Mus musculus with 6 samples.

Results

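Interferon-stimulated genes, the transcripts that cells switch on when an interferon binds its receptor, were examined in the liver of mice labelled as knockouts for cGK1, a cGMP-dependent protein kinase whose gene is Prkg1. The members were 46 genes listed by name. A gene was followed where the array carried a probe set annotated with that symbol alone, and where there were several, the brightest of them on average was taken. This left 41 of 46 members, among 22180 genes measured in the same way. Gbp2, Ifi47, Oas1a and Dtx3l shared their probe sets with another gene symbol and Ifi44 was not in the annotation used here, so these 5 were not analysed here. The study compared total liver RNA of 3 knockout samples labelled cGK1-KO with 3 samples labelled wild type, which the series description calls control mice. All mice were males on the C57BL/6N background at an age of 2 months. The series description adds that the knockout line had the kinase restored in smooth muscle cells. Which promoter drives that rescue is not stated in the labels, nor is it stated whether the samples came from separate animals.

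Interferons fall into families that use different receptors. Type I interferons signal through the kinases JAK1 and TYK2 to a complex that holds STAT2 and IRF9 and binds a promoter element called the interferon-stimulated response element (ISRE). Interferon gamma signals through JAK1 and JAK2 to a promoter element called the gamma-activated site (GAS), and switches on the transcription factor IRF1. In the liver hepatocytes, endothelial cells and Kupffer cells, the resident macrophages, all answer interferons, and most interferon-stimulated genes have a low level without infection. Of the measured members, 31 were classed as type I-driven and 10 as gamma-driven, after the interferon they are best known to answer, although most gamma-driven members also answer type I interferon.

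The promoters of 4 members hold the letters of the ISRE, the GAS or both. They were chosen because Phf11b had the most positive difference of all measured members, Irf1 and Irgm2 are gamma-driven members that lay higher on all 3 knockout arrays, and Isg15, a textbook type I target, did not. Each window runs from 250 bases before to 50 bases after the gene's start in RefSeq (build GRCm38.p6), written 5′ to 3′ on the gene's strand, and capitals mark a core, searched on both strands. The ISRE core was GAAA, any 2 bases and GAAA again, and the GAS core was TTCNNNGAA. The windows are chr14:59341281-59341580 on the minus strand for Phf11b, chr11:58214727-58215026 on the plus strand for Irgm2, chr11:53769764-53770063 on the plus strand for Irf1, which has another window as well, and chr4:156200769-156201068 on the minus strand for Isg15.
Phf11b: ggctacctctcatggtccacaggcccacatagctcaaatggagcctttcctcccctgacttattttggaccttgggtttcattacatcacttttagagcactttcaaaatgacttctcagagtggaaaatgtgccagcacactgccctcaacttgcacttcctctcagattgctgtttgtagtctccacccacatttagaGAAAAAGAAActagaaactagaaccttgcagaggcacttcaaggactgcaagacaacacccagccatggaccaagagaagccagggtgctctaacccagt
Irgm2: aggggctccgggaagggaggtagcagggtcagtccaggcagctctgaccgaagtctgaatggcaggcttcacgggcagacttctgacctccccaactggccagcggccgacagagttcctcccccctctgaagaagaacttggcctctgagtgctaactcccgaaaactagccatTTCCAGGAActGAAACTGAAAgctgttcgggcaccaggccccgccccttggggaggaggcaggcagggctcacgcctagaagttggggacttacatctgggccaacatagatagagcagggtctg
Irf1: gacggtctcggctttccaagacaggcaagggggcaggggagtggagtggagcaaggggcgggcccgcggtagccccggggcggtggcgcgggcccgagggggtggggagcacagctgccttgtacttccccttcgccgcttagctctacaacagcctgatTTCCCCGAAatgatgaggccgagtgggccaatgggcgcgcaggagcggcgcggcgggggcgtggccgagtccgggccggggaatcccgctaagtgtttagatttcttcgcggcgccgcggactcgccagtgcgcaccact
Isg15: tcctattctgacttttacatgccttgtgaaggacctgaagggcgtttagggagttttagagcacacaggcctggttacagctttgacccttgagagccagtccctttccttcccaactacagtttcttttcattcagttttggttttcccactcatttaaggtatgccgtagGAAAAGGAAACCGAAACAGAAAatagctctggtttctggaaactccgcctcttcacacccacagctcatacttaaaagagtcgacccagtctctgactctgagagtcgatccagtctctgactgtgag
Phf11b holds 1 ISRE core, Irgm2 holds 1 ISRE core beside 1 GAS core, Irf1 holds 1 GAS core, and Isg15 holds 3 ISRE cores that overlap each other in a row. RefSeq windows were at hand for 28 of the measured members. The ISRE core stood in 17 of these 28 genes (60.7%), against 3.99% of all 27025 genes with a window, and the GAS core in 9 (32.1%), against 9.55% of all. By class, the GAS core stood in 5 of 7 gamma-driven members and in 4 of 21 type I-driven members, and the ISRE core in 5 of 7 and 12 of 21. Members with an ISRE core had a median log2 difference of 0.23 between the groups and those without it 0.36, while for the GAS core the medians were 0.36 with it and 0.23 without it. By class, the GAS medians were 0.43 with it and 0.28 without it in gamma-driven members. In type I-driven members the order was reversed, at 0.18 with it and 0.23 without it. For the ISRE core both classes had the lower median with it. A match of letters describes the window and is not evidence of binding.

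Each sample was measured on 1 array, so the number of arrays limits the precision of all values. Values are log2 RMA expression, on which 1 unit is a doubling, and array medians lay between 3.11 and 3.16. Correlations across genes, which are not independent replicates, were 0.989 to 0.990 among the control arrays and 0.978 to 0.983 among the knockout arrays, so the knockout arrays differed more from each other. Prkg1, the targeted gene, lay at 3.31, 3.04 and 3.22 in knockout replicates 1 to 3 and at 3.32, 2.97 and 2.95 in the controls. The groups overlapped, the difference was 0.11 (standard error 0.15, limma adjusted p = 0.837), and the signal was near the middle of the table (3.14), where dim probe sets lie, so Prkg1 could not be used to check the genotypes. Of 10 hepatocyte markers, among them Alb and Apoa1, 0 were dim on all arrays. Their median difference was -0.05, and 2 of 10, Tat (-0.38) and Hnf4a (-0.36), lay lower at an unadjusted p under 0.05, against 5.46% of all genes.

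As a group, interferon-stimulated genes lay slightly higher in the knockout liver, and no member passed the test across all genes. In 33 of 41 members the knockout mean was above the control mean (against 50.2% of all genes), and the median log2 difference was 0.29 (1.22-fold), against 0.00 over all genes. Limma called 0 of 41 members at an adjusted p of 0.05, where it called 0 of 22180 genes (0%). At an unadjusted p under 0.05 there were 11 members, against 10.5% of all genes. Of these, 10 lay higher, against a background of 5.06% of all genes, and 1 lay lower, against 5.46%. The 10 higher were Phf11b, Ly6e, Irf1, Xaf1, Gbp9, Irgm2, Oas2, Gbp7, Irf8 and Bst2, and the lower was Ifi27. All 3 knockout values lay above all 3 control values in 7 members (7.61% of all genes) and below them in 1 member, Ifi27 (9.14% of all genes). These counts describe the members and do not test them as a set, since the members were chosen with earlier results of these data known.

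**Figure D1:**
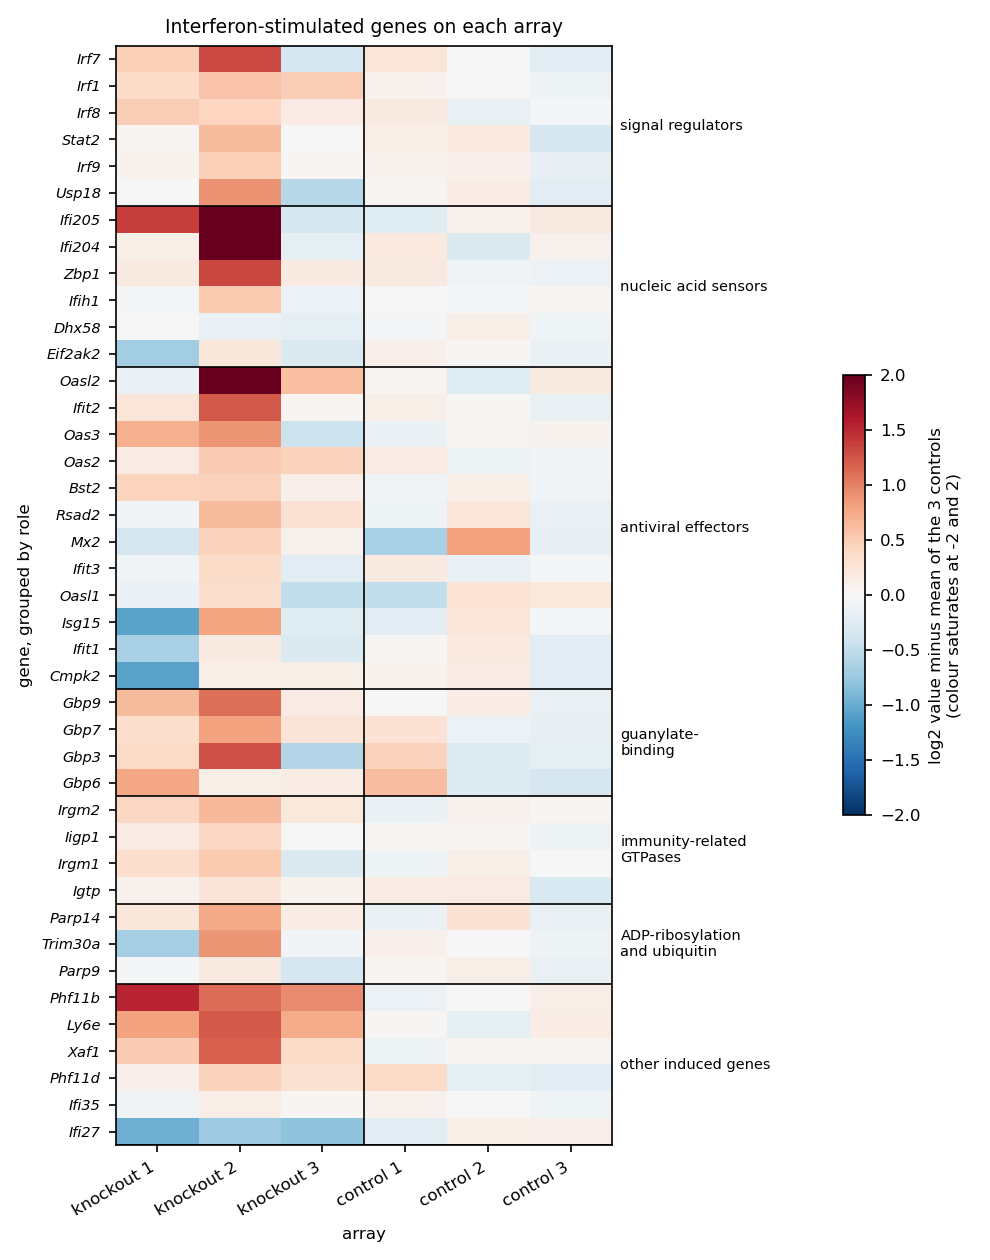
Log2 value of each of the 41 measured members minus the mean of the 3 controls, with arrays across and genes down, grouped by role; red is above and blue below the control mean. The column of knockout replicate 2 is the reddest, and it held the highest value of 33 of 41 members.

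The higher level rested largely on a single knockout array, without which the median difference of the members was 0.08. Knockout replicate 2 held the highest of the 6 values in 33 of 41 members, where it did so in 17.9% of all genes, and the lowest in 0, where it did so in 17% of all genes. Knockout replicate 3 held the highest value in 0 members (19.6% of all genes) and the lowest in 11 (18.6% of all genes). Control replicate 3 held the lowest value in 15 members (13.8% of all genes), and without it the median difference of the members was 0.19. Knockout replicate 2 lay above all 3 controls in 35 members (28.2% of all genes), whereas knockout replicate 1 did in 18 (29.9% of all genes) and knockout replicate 3 in 9 (30.8% of all genes). In 16 members knockout replicate 2 alone lay above the controls (9.54% of all genes). Knockout replicate 3 lay below all 3 controls in 15 members (36.6%), not far from the 30.2% of all genes. Knockout replicate 1 did so in 7 (17.1%, against 32.2% of all genes) and knockout replicate 2 in 2 (4.88%, against 30.1% of all genes). The median member deviated from its control mean by 0.12, 0.57 and 0.03 on knockout replicates 1 to 3. The knockout arrays therefore spread widely in these genes, with a median standard deviation of 0.355 over the members against 0.193 over all genes, while the controls had 0.165 against 0.146.

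Markers of some of the cells that live beside hepatocytes moved with the same array. Over 14 Kupffer cell and macrophage markers the median deviation from the control mean was 0.73, 1.53 and 0.39 on knockout replicates 1 to 3. At an unadjusted p under 0.05, 13 of 14 lay higher (92.9%, against 5.06% of all genes). Their summed level was 9.98 to 11.21 on the log2 scale in the knockout and 9.56 to 9.68 in the controls, so the groups did not overlap. The 8 sinusoidal endothelial markers deviated by -0.12, 0.69 and -0.03, with a summed level of 9.57 to 10.30 in the knockout and 9.57 to 9.62 in the controls. The 8 stellate cell markers deviated by -0.03, 0.46 and 0.07, with summed levels of 8.16 to 9.0 and 8.13 to 8.34. Knockout replicate 2 was thus the highest array for macrophage, endothelial and stellate cell markers as well as for interferon-stimulated genes. It was also the highest for the 8 monocyte markers, whose summed level was 5.99 to 6.64 in the knockout and 5.72 to 5.89 in the controls. The summed levels of dendritic cell markers (9.05 to 9.35 against 8.52 to 8.68) and of neutrophil markers (6.21 to 6.34 against 6.07 to 6.12) did not overlap between the groups either. However, 6 of 10 neutrophil markers and 5 of 8 monocyte markers were dim on all 6 arrays, so much of these sums is background. The dendritic cell sum rested mostly on the bright gene Cd209a (9.10, 8.86 and 8.69 against 8.05, 7.97 and 8.14). Over the 7 dendritic cell markers the median difference was 0.07, with 4 positive and 3 negative. Plasmacytoid dendritic cells, which make type I interferon, had 6 markers outside the members. Of these, 0 differed at an unadjusted p under 0.05 (against 10.5% of all genes), with summed levels of 6.04 to 6.15 and 5.93 to 6.08. T and NK cells make interferon gamma. Of their 13 markers 1 lay higher at an unadjusted p under 0.05 (7.69%, against 5.06% of all genes). Their summed level was 6.90 to 7.02 in the knockout and 6.82 to 6.84 in the controls, so the groups did not overlap here either. Of the 13, 4 were dim on all 6 arrays. Not all lists followed knockout replicate 2. For neutrophil, T and NK cell and plasmacytoid dendritic cell markers it had the lowest sum of the knockout arrays. For cholangiocyte markers it had the lowest sum of all 6 arrays (5.80), and the dendritic cell sum was highest on knockout replicate 1. No marker list was at 0, since arrays give a background value to every probe set. In whole liver more cells of a type and more RNA per cell cannot be told apart, and the part of these cells in the interferon-stimulated genes was not tested.

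**Figure D2:**
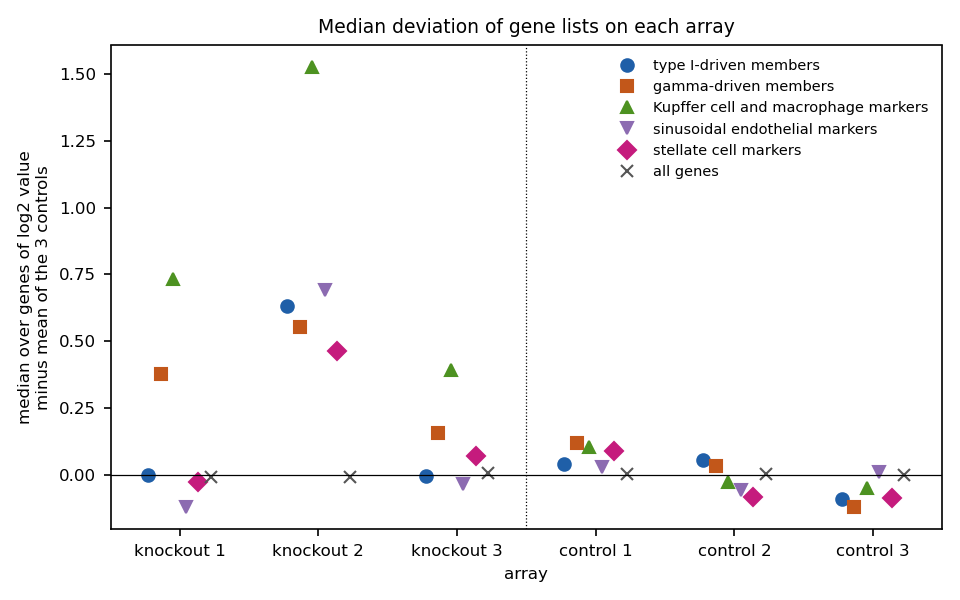
Median over genes of the log2 value minus the mean of the 3 controls, for each array, in the type I-driven and gamma-driven members, 3 marker lists and all genes. On knockout replicate 2 the members and all 3 marker lists lie between 0.46 and 1.53, while all genes stay near 0 on all 6 arrays.

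By the median member, the classes differed in how evenly the knockout arrays took part. All 10 gamma-driven members had a positive difference, from 0.14 to 0.63 with a median of 0.36 (1.29-fold), and 5 of 10 lay higher at an unadjusted p under 0.05, against 5.06% of all genes. Of the 31 type I-driven members 23 had a positive difference, with a range of -0.84 to 1.20 and a median of 0.23 (1.17-fold), and 5 lay higher and 1 lower at an unadjusted p under 0.05, against 5.06% and 5.46% of all genes. On knockout replicates 1 to 3 the median gamma-driven member deviated by 0.38, 0.55 and 0.16 from the control mean, and the median type I-driven member by 0.00, 0.63 and 0.00. The median type I-driven member was thus above the controls on knockout replicate 2 only. The summed level of the type I-driven members was 11.20, 11.73 and 11.09 on the log2 scale in the knockout and 10.91, 10.94 and 10.89 in the controls. By this measure all knockout arrays lay above all controls, but the brightest genes weigh most in it. The brightest, Ly6e, lay at 9.85, 10.29 and 9.80 against 9.08, 8.87 and 9.21, and the sum without Ly6e was not taken. The summed level of the gamma-driven members overlapped between the groups, at 9.98, 10.23 and 9.80 against 9.81, 9.80 and 9.64. Knockout replicate 1 lay above all 3 controls in 8 of 10 gamma-driven and in 10 of 31 type I-driven members (32.3%), against 29.9% of all genes. Knockout replicate 3 did so in 3 of 10 (30%) and 6 of 31 (19.4%), against 30.8% of all genes. It lay below all 3 controls in 2 of 10 (20%) and 13 of 31 (41.9%), against 30.2% of all genes. Without knockout replicate 2 the medians were 0.31 for gamma-driven and 0.02 for type I-driven members, and Gbp3 turned to -0.10. Without control replicate 3 they were 0.31 and 0.14, and Igtp turned to -0.01. The difference between the classes was not tested.

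**Figure D3:**
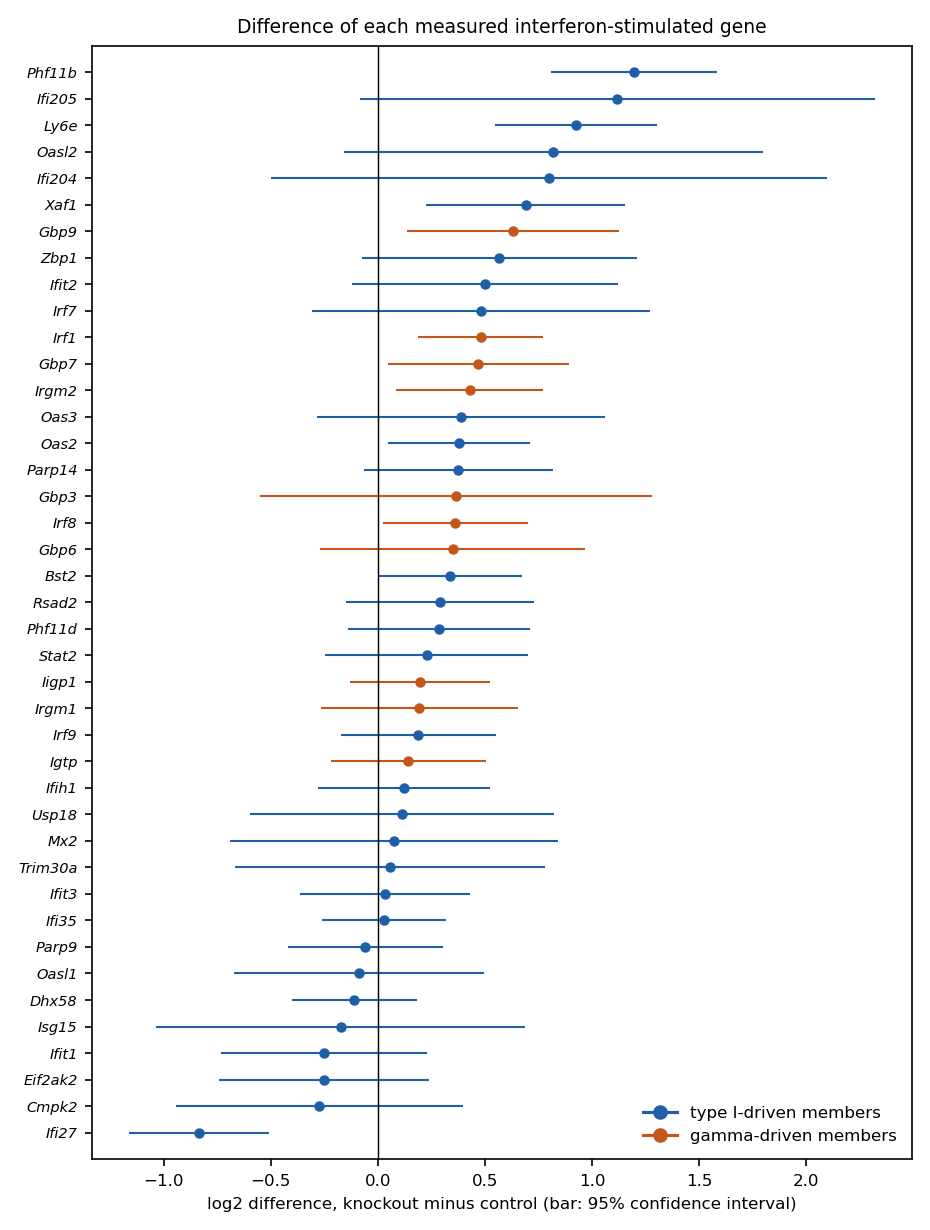
Log2 difference, knockout minus control, of each measured member with its 95% confidence interval, ordered by size, with type I-driven members in blue and gamma-driven members in orange. All 10 gamma-driven members lie above 0, and type I-driven members span -0.84 to 1.20.

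Among the regulators of the response, Irf1 and Irf8 had the clearest differences. Irf1, the transcription factor that carries much of the gamma response, lay at 4.84, 5.05 and 4.96 in knockout replicates 1 to 3 and at 4.56, 4.49 and 4.37 in controls 1 to 3. All knockout arrays were above all controls and close to each other, and the difference was 0.48 (1.39-fold, standard error 0.13, limma adjusted p = 0.299). Irf8, a transcription factor of macrophages and dendritic cells, lay at 4.12, 4.05 and 3.78 against 3.79, 3.46 and 3.60. The groups overlapped by a narrow margin through control replicate 1, and the difference was 0.36 (1.28-fold, standard error 0.15, limma adjusted p = 0.439), while a second, dimmer probe set gave 0.08. The factors that carry the type I signal showed another picture. Irf7, which amplifies type I interferon production, lay at 7.26, 8.09 and 6.43 against 7.01, 6.77 and 6.56, so that knockout replicate 2 was the highest and knockout replicate 3 the lowest of all arrays. Usp18, an inhibitor of type I receptor signalling, lay at 6.63, 7.53 and 6.06 against 6.69, 6.78 and 6.41, with the same order of the knockout arrays. Stat2 and Irf9, whose products are parts of the ISRE-binding complex, differed by 0.23 and 0.19, and in both only knockout replicate 2 lay above the controls.

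Among the nucleic acid sensors the genes of the Ifi200 family, which code for DNA-binding proteins of myeloid cells, had the widest spread. Ifi205 lay at 4.41, 5.34 and 2.68 in knockout replicates 1 to 3 and at 2.78, 3.10 and 3.20 in the controls. Knockout replicates 1 and 2 were far above the controls and knockout replicate 3 was the lowest array, and the difference of 1.12 had a 95% confidence interval of -0.09 to 2.32 (limma adjusted p = 0.501). Without knockout replicate 3 it was 1.85 (limma adjusted p = 0.0357), and without knockout replicate 2 it was 0.52. Ifi204 lay at 2.81, 5.16 and 2.49 against 2.88, 2.40 and 2.78, so only knockout replicate 2 stood out, and the difference of 0.80 became -0.04 without it. Ifi204 was dim on 5 arrays and Ifi205 on 3, and the family's near-identical members can share probes. Zbp1, a sensor of unusual nucleic acid helices, lay at 5.10, 6.25 and 5.10 against 5.10, 4.85 and 4.80, again high on knockout replicate 2. Eif2ak2, the RNA-activated kinase PKR, lay at 4.50, 5.43 and 4.92 against 5.30, 5.23 and 5.07. Its knockout values fell on both sides of the controls, and the difference was -0.25 (standard error 0.22, limma adjusted p = 0.718). The cytosolic RNA sensors of the RIG-I family, Ifih1 and Dhx58, differed by 0.12 and -0.11.

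The antiviral effectors, which block steps of viral growth, were mixed: 8 of 12 differences were positive, the median was 0.18, and 2 of 12 lay higher at an unadjusted p under 0.05, against 5.06% of all genes. Oas2, which makes the messenger that activates an RNA-cutting enzyme, lay at 3.91, 4.24 and 4.19 in the knockout and at 3.89, 3.63 and 3.68 in the controls. The groups did not overlap, though knockout replicate 1 and control replicate 1 nearly met, and the difference was 0.38 (1.30-fold, standard error 0.15, limma adjusted p = 0.417). Bst2, known as tetherin because it holds budding virus on the cell surface, lay at 7.97, 7.99 and 7.63 against 7.46, 7.66 and 7.46. Knockout replicates 1 and 2 were above the controls and knockout replicate 3 was within their range, and the difference was 0.34 (1.26-fold, standard error 0.15, limma adjusted p = 0.466). Oasl2 was highest on knockout replicate 2 at 5.86, with 3.74 and 4.47 on knockout replicates 1 and 3 and 3.62 to 4.05 in the controls.

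The other 4 effectors had a negative difference: Isg15, Cmpk2, Ifit1 and Oasl1. Isg15, a ubiquitin-like protein joined to other proteins, lay at 4.32, 6.17 and 5.15 in the knockout and at 5.16, 5.63 and 5.37 in the controls. Knockout replicate 1 was the lowest and knockout replicate 2 the highest array, and the difference was -0.17 (95% confidence interval -1.04 to 0.69, limma adjusted p = 0.902). Cmpk2, a mitochondrial nucleotide kinase, lay at 4.28, 5.49 and 5.47 against 5.42, 5.50 and 5.14, so that knockout replicate 1 alone was low, and the difference was -0.27 (standard error 0.30, limma adjusted p = 0.782). Ifit1, which binds foreign RNA ends, lay at 4.95, 5.78 and 5.32 against 5.63, 5.80 and 5.37, and its gene overlaps Ifit1bl1 in RefSeq, so RNA of both may reach its probes. Knockout replicate 1 lay below all 3 controls in Isg15, Cmpk2 and Ifit1, which belong to the 7 of 31 type I-driven members where it did so (22.6%, against 32.2% of all genes). The remaining effectors Ifit2, Ifit3, Mx2, Oas3, Oasl1 and Rsad2 differed by -0.09 to 0.50, with groups that overlapped.

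The interferon-inducible GTPases, which gather on the vacuoles of invading microbes, lay higher on average in all 8 measured genes. Gbp9 lay at 5.29, 5.75 and 4.83 in knockout replicates 1 to 3 and at 4.66, 4.80 and 4.51 in the controls. The groups did not overlap, though knockout replicate 3 nearly met control replicate 2, and the difference was 0.63 (1.55-fold, standard error 0.22, limma adjusted p = 0.375), or 0.40 without knockout replicate 2. Gbp7 lay at 5.69, 6.14 and 5.60 against 5.62, 5.21 and 5.17. Control replicate 1 reached into the knockout range, and the difference was 0.47 (1.38-fold, standard error 0.19, limma adjusted p = 0.429), or 0.30 without knockout replicate 2. Gbp3 and Gbp6 differed by 0.36 and 0.35, with wide intervals. Gbp6 was dim on all 6 arrays, and guanylate-binding protein genes are similar enough for probes to be shared.

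Of the measured immunity-related GTPases, Irgm2 had the largest difference. It lay at 6.56, 6.80 and 6.36 in the knockout and at 6.01, 6.24 and 6.19 in the controls, so the groups did not overlap, and the difference was 0.43 (1.34-fold, standard error 0.15, limma adjusted p = 0.385). Iigp1, a GTPase that disrupts parasite vacuoles, lay at 9.34, 9.59 and 9.18 against 9.22, 9.23 and 9.07. Knockout replicate 3 was within the control range, and the difference was 0.19 (1.14-fold, standard error 0.15, limma adjusted p = 0.668), or 0.09 without knockout replicate 2. Irgm1 and Igtp differed by 0.19 and 0.14. Of the factors for ADP-ribosylation and ubiquitin transfer, Parp14 differed by 0.38, Trim30a by 0.05 and Parp9 by -0.06, and each was highest on knockout replicate 2. The Parp9 gene overlaps Dtx3l in RefSeq, and RNA of both may reach its probes.

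Among the other induced genes Phf11b, Ly6e and Xaf1 lay above all controls on all 3 knockout arrays. Phf11b, a gene with a PHD zinc finger, lay at 5.57, 5.16 and 4.99 in knockout replicates 1 to 3 and at 3.92, 4.03 and 4.17 in the controls. A gap of 0.81 separated the lowest knockout array from the highest control, and the difference was 1.20 (2.29-fold, standard error 0.17, limma adjusted p = 0.0888), the smallest adjusted p of all members. In contrast to most members, its highest value was on knockout replicate 1. Ly6e, a membrane-anchored surface protein that affects the entry of viruses, lay at 9.85, 10.29 and 9.80 against 9.08, 8.87 and 9.21. Knockout replicates 1 and 3 were nearly equal and well above the controls, and the difference was 0.93 (1.90-fold, standard error 0.17, limma adjusted p = 0.178). Xaf1, a gene that promotes cell death, lay at 4.73, 5.42 and 4.61 against 4.13, 4.27 and 4.28. The groups did not overlap, and the difference of 0.69 (1.61-fold, standard error 0.21, limma adjusted p = 0.326) was 0.44 without knockout replicate 2.

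Ifi27 was the clearest exception. This gene, whose product lies in mitochondrial and nuclear membranes, was at 5.79, 6.04 and 5.95 in the knockout and at 6.55, 6.87 and 6.86 in the controls. All 3 knockout arrays were well below all controls, with knockout replicate 2 no longer apart, and the difference was -0.84 (1.78-fold lower, standard error 0.14, limma adjusted p = 0.151). The Ifi27 gene overlaps Ifi27l2a in RefSeq, so RNA of both may reach its probes. Of the other genes in this group, Phf11d differed by 0.29 and was dim on all 6 arrays, and Ifi35 differed by 0.03, or -0.07 by a second, dimmer probe set.

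**Figure D4:**
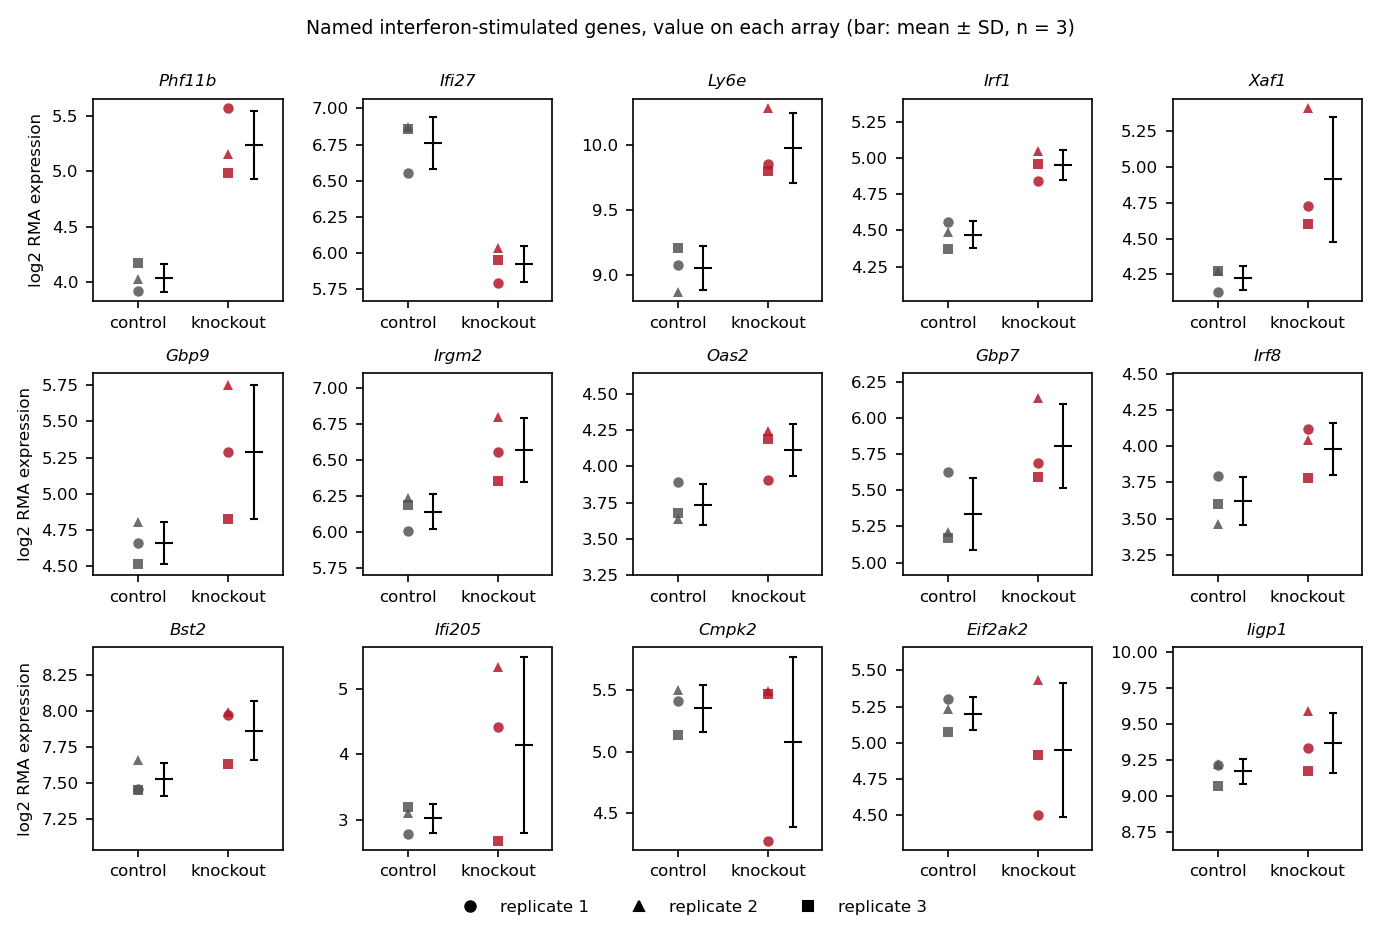
Log2 RMA expression of the 15 members named by rule, each on its own vertical scale, with controls in grey and knockouts in red, replicates by symbol, and the mean ± SD beside them (n = 3). Phf11b, Ly6e, Xaf1, Irf1, Gbp9, Irgm2 and Oas2 lie higher and Ifi27 lower on all 3 knockout arrays, Gbp9 and Oas2 by a narrow margin. Ifi205, Cmpk2 and Eif2ak2 spread across the control range.

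These counts depended on single arrays. Without knockout replicate 2 there were 4 members higher at an unadjusted p under 0.05 (Irf1, Phf11b, Ly6e and Xaf1), against 6.12% of all genes, and 4 lower (Ifi27, Ifit1, Isg15 and Eif2ak2), against 6.21%. Without knockout replicate 3 there were 18 higher, against 5.97% of all genes, and 1 lower, against 6.19%, and Phf11b (1.32, limma adjusted p = 0.0232) and Ifi205 passed the test over all genes. Without control replicate 3 there were 5 higher (Irf1, Irgm2, Phf11b, Ly6e and Xaf1), against 3.76% of all genes, and 1 lower, against 4.1%. Phf11b, Ly6e, Irf1 and Xaf1 as higher and Ifi27 as lower were in the counts of all 3 of these fits.

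The interferon genes themselves had a median difference of -0.02, and their receptors were mixed. Of 17 measured interferon ligand genes, 9 were dim on all 6 arrays, so their values say little. At an unadjusted p under 0.05, 0 lay higher and 1 lower, against 5.06% and 5.46% of all genes. The lower gene was Ifnl3 (-0.34, limma adjusted p = 0.399). Ifnb1, the type I interferon most cells make first, lay at 1.56, 1.20 and 1.43 in the knockout and at 1.45, 1.67 and 1.61 in the controls. Ifng, which codes for interferon gamma, lay at 1.71, 1.89 and 1.96 against 2.10, 1.96 and 1.84. Both were dim on all 6 arrays, so both values lay in the background range. The receptor genes Ifnar1 and Ifnar2 of type I interferon differed by 0.07 and 0.06, and those of interferon gamma, Ifngr1 and Ifngr2, by 0.29 and -0.10. In the list of receptors, kinases and STATs, 11 of 13 differences were positive, with a median of 0.19. All knockout arrays lay above all controls in 4 of 13 (30.8%, against 7.61% of all genes). At an unadjusted p under 0.05, 2 of 13 lay higher (15.4%, against 5.06% of all genes). These were Socs3, an inhibitor of JAK signalling that IL-6 family cytokines induce (0.50, limma adjusted p = 0.306), and Il10rb, a receptor chain shared by IL-10 and interferon lambda (0.44, limma adjusted p = 0.398). Socs3 lay at 5.29, 5.14 and 4.92 against 4.62, 4.56 and 4.67, with no overlap.

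Interferon targets outside the members also lay higher on average, in lists that were likewise chosen with earlier results known. Of 45 further targets 37 had a positive difference, and the median was 0.26. At an unadjusted p under 0.05, 6 lay higher and 1 lower, against 5.06% and 5.46% of all genes. Ifitm3, a membrane protein that stops virus fusion, lay at 10.08, 10.38 and 9.99 in the knockout and at 9.06, 9.12 and 9.74 in the controls. The groups did not overlap, and the difference was 0.84 (1.79-fold, standard error 0.20, limma adjusted p = 0.248). Slfn2, a regulator of lymphoid and myeloid cells, differed by 0.83 (standard error 0.19, limma adjusted p = 0.237), Lgals3bp, a secreted glycoprotein, by 0.67 (limma adjusted p = 0.306) and Slfn1 by 0.46 (limma adjusted p = 0.322). Of 7 further Ifi200 genes all differences were positive, with a median of 0.52, led by Ifi209 (1.29, limma adjusted p = 0.237) and Ifi207 (0.66), and 4 of the 7 were dim on all arrays. Of 8 relatives of the interferon-inducible GTPases, 1 lay higher at an unadjusted p under 0.05 (12.5%, against 5.06% of all genes), and the median was -0.04. This was Gbp8 (0.65, limma adjusted p = 0.264). In the list of sensors and their adaptors 2 of 14 lay higher (14.3%, against 5.06% of all genes). These were Tlr9, an endosomal DNA receptor (0.46), and Myd88, the adaptor of Toll-like receptors (0.65). Over all 118 measured pathway genes outside the members, 15 lay higher at an unadjusted p under 0.05 (12.7%, against 5.06% of all genes) and 3 lower (against 5.46%). Without knockout replicate 3 there were 23 higher and 5 lower, against 5.97% and 6.19% of all genes. Without knockout replicate 2 there were 12 and 3, against 6.12% and 6.21%. Without control replicate 2 there were 12 and 0, against 3.54% and 3.42%.

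**Figure D5:**
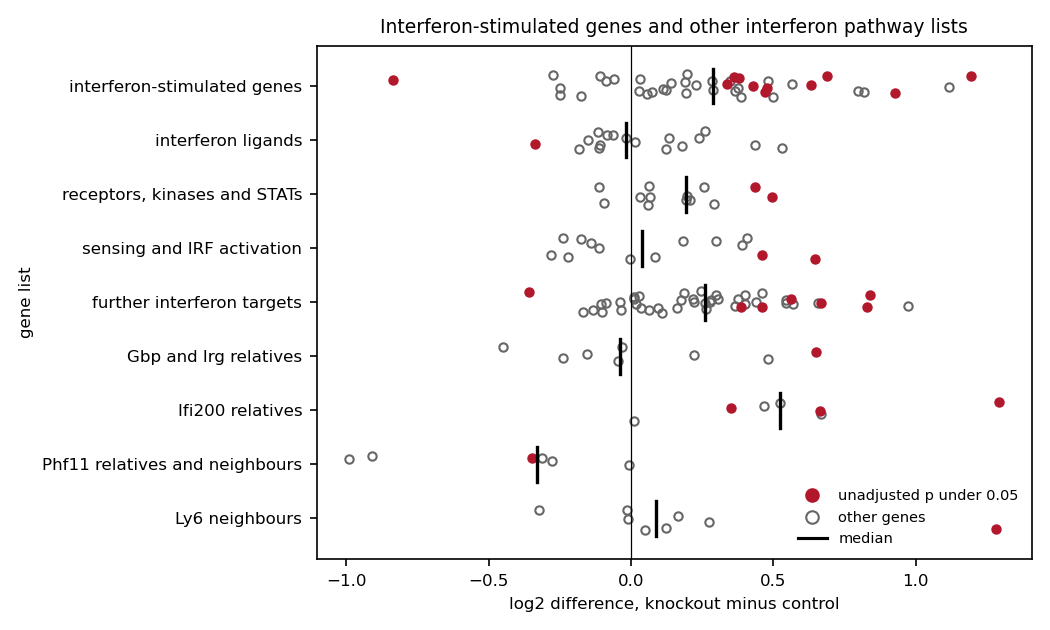
Log2 difference, knockout minus control, of the 41 members and of 8 other interferon pathway lists, 1 point a gene, filled in red where the unadjusted p was under 0.05, with the median as a bar. The medians are 0.29 for the members, -0.02 for the ligands and 0.26 for the further targets.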

How the data were processed

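Total liver RNA of 6 samples was hybridised to Affymetrix whole-transcript arrays, from 100 ng of RNA each, per the labels' protocols. The deposited table holds log2 expression values made by the authors with Affymetrix Expression Console 1.4.1 and RMA, per the submitters' processing notes. RMA sets all arrays to a common distribution, so a shift of most transcripts at once would not be seen. Of 41345 probe sets, 23521 had 1 gene symbol in the platform annotation, 1814 had several and 16010 were unlisted. The first kind gave 22180 genes, 1 probe set each.

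A linear model on group was fitted over all genes with limma 3.58.1 (lmFit, eBayes; R 4.3.3), and p-values were adjusted by the Benjamini-Hochberg method with 0.05 as the threshold. All differences subtract the control mean from the knockout mean, n = 3 per group. Since separate animals are not stated, p-values reflect no more than the spread between these samples, which may be technical. No 2 arrays held identical values (0 pairs). Dim means below the median of all values (3.14). Alternatives were array centring, quantile normalization, a dim filter, an intensity trend, a robust prior, array weights, the replicate number as a block, the mean of a gene's probe sets, and each array left out in turn. The model was tested on simulated data, in which 50 genes brighter than the median were shifted by each known amount. It called 2% of them at a log2 shift of 0.5 and 70% at a shift of 1.

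The members and gene lists were chosen with earlier results of these data known. Named members are those at an unadjusted p under 0.05 (up to 14), the 3 most positive and 3 most negative differences, and the 3 with the highest signal; other members are described by role. Named pathway genes are up to 12 at an unadjusted p under 0.05, with ligands, receptors and neighbours of named members. Of 137 pathway symbols, 118 matched a tested gene, 2 of them through an older symbol. Genes named beyond this were chosen after their values were seen. Promoters are from RefSeq.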

Additional observations from a re-analysis of the deposited data

How the results depend on the processing

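In each of 14 alternatives the median difference of the members stayed positive (0.08 to 0.43), as did those of type I-driven (0.02 to 0.33) and gamma-driven members (0.27 to 0.49). For genes past the threshold over all genes, which were 0, the count was 8 with the filter on dim probe sets, 25 with an intensity trend and 1 with the replicate block, and 0 to 66 over the fits that leave out 1 array. Members past it numbered 1 with an intensity trend (Phf11b, limma adjusted p = 0.0428) and 0 to 2 with 1 array left out. Members at an unadjusted p under 0.05, 11 in all, numbered 6 to 19 with 1 array left out, and pathway genes, 18 in all, 12 to 28. Of all genes, 3.54% to 6.12% lay higher and 3.42% to 6.21% lower at that p over the fits with 1 array left out. Of 210 values of the 15 named members 1 turned its sign: with 1 array left out Cmpk2 ranged from -0.48 to 0.13, the last without knockout replicate 1, which alone was low. Of the 41 members 28 kept their sign in all fits. The replicate numbers did not pair the arrays: deviations of same-numbered arrays correlated at 0.01, 0.05 and 0.02, and 2 of 3 knockout arrays correlated best with their own number. With the replicate block 12 members lay higher and 1 lower at an unadjusted p under 0.05, against 5.18% and 5.41% of all genes. With 3 arrays a group, small differences cannot be resolved, in dim genes such as Gbp6, Phf11d, Ifnb1 and Ifng or in brighter ones. On simulated data 2% of log2 shifts of 0.5 and 70% of shifts of 1 were called. The simulated noise was drawn alike for both groups from the spread of all genes. On the knockout arrays the members had a median standard deviation of 0.355 against 0.193 over all genes, so these shares may not hold for them. A member that was not called may thus still differ.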

Other observations

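Of the Phf11 relatives and neighbours on the chromosome of Phf11b, Phf11d differed by 0.29, and the 6 listed outside the members had a negative difference, with a median of -0.33. Setdb2, a histone methyltransferase gene, lay at 5.02, 5.22 and 5.48 in knockout replicates 1 to 3 and at 5.54, 7.33 and 5.58 in the controls, and Phf11c at 3.36, 3.27 and 3.57 against 3.35, 5.83 and 3.98. In both genes control replicate 2 stood far above the other arrays, and without it the differences were -0.32 and -0.27. Rcbtb1 differed by -0.35 and Phf11a by -0.31, Kpna3 by -0.28 and Cab39l by -0.01.

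Of 8 Ly6 genes listed beside Ly6e, Ly6c2, a marker of inflammatory monocytes, lay higher on all 3 knockout arrays at 2.55, 4.0 and 2.18, against 1.83, 1.82 and 1.22. It was dim on 5 arrays, all but knockout replicate 2, and its difference was 1.28 (limma adjusted p = 0.347), or 0.74 without that array. The differences of the other Ly6 genes lay between -0.32 (Ly6i) and 0.27 (Ly6d). Ifi27l2b, a neighbour of Ifi27 chosen after its values were seen, had the opposite direction, at 4.03, 4.15 and 3.18 in the knockout and 2.37, 3.04 and 3.12 in the controls.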
